A study of Mus musculus with 32 samples.

Results

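The sites described here are the HNF4A binding sites at 10 genes of the circadian clock and its output: Clock, Arntl, Per1, Per2, Cry1, Cry2, Nr1d1, Nr1d2, Dbp and Nfil3. They were chosen by position alone. Peaks from the 8 HNF4A ChIP-seq lists that shared 1 bp or more were joined into merged sites, which were kept when they lay in the body of one of these genes or within 20 kb on either side (mouse build mm9, GENCODE M1). All 10 genes had a site, and 75 of the 45552 merged sites were kept.

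All 8 libraries came from male C57BL/6J mice aged 10 to 12 weeks, 1 mouse per library. GF+HFM mice (4 libraries) were reared germ-free and received a high-fat meal by gavage. CV+HFM mice (4 libraries) were ex-germ-free, carried a conventional microbiota for 14 days and received the same meal. Jejunal intestinal epithelial cells (IECs) were collected 2 hours after the meal. The methods describe collection at a shared time of day, so the comparison is between microbial conditions and not along the day. The preparations were unsorted, mostly villus epithelium with some crypts and mesenchymal cells, so binding in a smaller share of cells and weaker binding per cell cannot be told apart. GF and CV libraries without the meal, RNA-seq and H3K27ac were not analysed here.

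The clock of mammalian cells is a transcriptional loop. CLOCK and BMAL1 (the product of Arntl) bind E-boxes and activate Per and Cry genes, whose products repress them, while the REV-ERB receptors encoded by Nr1d1 and Nr1d2 repress Arntl and Nfil3 through ROR elements. DBP and NFIL3 compete for D-boxes, DBP as an activator and NFIL3 as a repressor, and in intestinal epithelium Nfil3 is known as a link between the microbiota, the clock and lipid uptake. HNF4A is a nuclear receptor of enterocytes that binds elements with the core CAAAGTCCA and direct repeats of AGGTCA with 1 base between the copies.

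Because the lists hold positions only, 3 measures were available for a site: the libraries that called it, the width of the widest peak a library had in it, and the percentile of that width among all peaks of the same list (100 is the widest). Widths are not binding strengths. In 11 of the sites at least 1 library had more than 1 peak, and its widest peak need not be the same peak as in another library. The lists differed in length, from 31061 to 36846 peaks for GF+HFM and from 4533 to 29345 for CV+HFM, a difference in means of -17996 peaks (two-sided exact permutation p = 0.0286, which is the lowest possible with 4 against 4). CV+HFM replicates 2 and 4 were the shortest lists, with 9206 and 4533 peaks. They also held the narrowest peaks, with median widths of 186 and 103 bp, while the other 6 lists had medians of 274 to 464 bp. HNF4A sites were found at all 7 enterocyte genes examined, from 3 sites at Sis to 19 at Vil1, and at 3 of 5 mesenchymal genes (2 or 3 sites each), with 0 at Col1a2 and Pdgfra. Peak calls at these genes are not RNA levels and do not measure the share of each cell type.

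The element CAAAGTCCA stood without a mismatch in 7 of the 75 sites, searched over their whole length. A share over all merged sites was taken for the central 200 bp only and is given further below. The reference sequence is given for the 5 of these that at least 7 libraries called, as the stretch that lies under a peak of every calling library, because these are the sites with the element that were called most widely. The sequences are from NCBIM37 (mm9), plus strand, and capitals mark the HNF4 element (the first run in capitals of each) or, in the Nfil3 sequence, also the E-box CACGTG:
Nfil3 intron 1, chr13:53070171-53070283: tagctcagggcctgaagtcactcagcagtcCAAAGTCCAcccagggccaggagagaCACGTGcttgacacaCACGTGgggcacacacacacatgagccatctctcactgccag
Per2 intron 6, chr1:93339370-93339525: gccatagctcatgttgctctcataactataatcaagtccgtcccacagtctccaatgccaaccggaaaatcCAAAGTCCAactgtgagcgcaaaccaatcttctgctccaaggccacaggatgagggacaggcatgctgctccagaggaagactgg
Per2 upstream, chr1:93360124-93360260: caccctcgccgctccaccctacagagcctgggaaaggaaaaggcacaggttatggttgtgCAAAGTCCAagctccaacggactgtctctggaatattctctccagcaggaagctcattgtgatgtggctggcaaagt
Arntl intron 2, chr7:120397411-120397560: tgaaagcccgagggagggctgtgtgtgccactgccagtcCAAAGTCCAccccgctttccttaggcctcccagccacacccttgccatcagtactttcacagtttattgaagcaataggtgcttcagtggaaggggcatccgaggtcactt
Cry2 upstream, chr2:92277863-92278062: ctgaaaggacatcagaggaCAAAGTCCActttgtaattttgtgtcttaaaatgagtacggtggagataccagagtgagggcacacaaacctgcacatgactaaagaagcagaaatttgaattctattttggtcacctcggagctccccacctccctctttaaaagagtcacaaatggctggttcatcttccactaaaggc
In all 5 the element read in the plus direction of the chromosome. In Nfil3 it was followed by 2 E-boxes whose first bases lay 15 bp apart, and element and E-boxes together spanned 47 bp, from 53070201 to 53070247. This arrangement was noticed after the sequences were seen.

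Further sequences are shown for 3 sites called in all 8 libraries that lie at a coding exon or just upstream of a gene start, to set sites with and without a match side by side. In the Dbp sequence, the central 200 bp of the 242 bp shared by the 8 libraries, the first capitals mark a direct repeat of AGGTCA on the minus strand with 2 mismatches and the second an HNF4 element with 1 mismatch. The other 2 sequences held no match to any of the 5 motifs:
Dbp exon 3, chr7:52963637-52963836: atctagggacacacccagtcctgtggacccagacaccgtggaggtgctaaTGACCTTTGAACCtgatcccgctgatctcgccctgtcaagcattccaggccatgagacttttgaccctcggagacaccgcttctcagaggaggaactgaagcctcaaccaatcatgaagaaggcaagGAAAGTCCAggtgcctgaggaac
Arntl upstream, chr7:120350618-120350697: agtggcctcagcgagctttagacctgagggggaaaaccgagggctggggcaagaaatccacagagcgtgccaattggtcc
Nr1d1 upstream, chr11:98638142-98638210: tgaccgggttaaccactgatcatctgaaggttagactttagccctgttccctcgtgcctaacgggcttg
No match says only that these letters were not in the window.

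Of the 75 sites, 29 lay in introns, 17 upstream of the gene, 19 beyond its end, 6 over exons, 3 over the annotated gene start and 1 (in Per1) between the gene start and the start of the transcript with the most exons. The 3 genes with a site over the start were Clock, Nr1d1 and Nr1d2, and 14.7% of all 22367 coding genes had one. This counts merged sites, and only at Nr1d2 did the stretch shared by all calling libraries include the start. The nearest coding gene start was that of the gene itself for 53 sites. For the others it was a neighbour such as Thra (at Nr1d1), Rpl18 (at Dbp), Hes6 (at Per2) or Mterfd3 (at Cry1), and 18 sites overlapped another coding gene. Positions alone do not assign a site to a target gene.

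**Figure D1:**
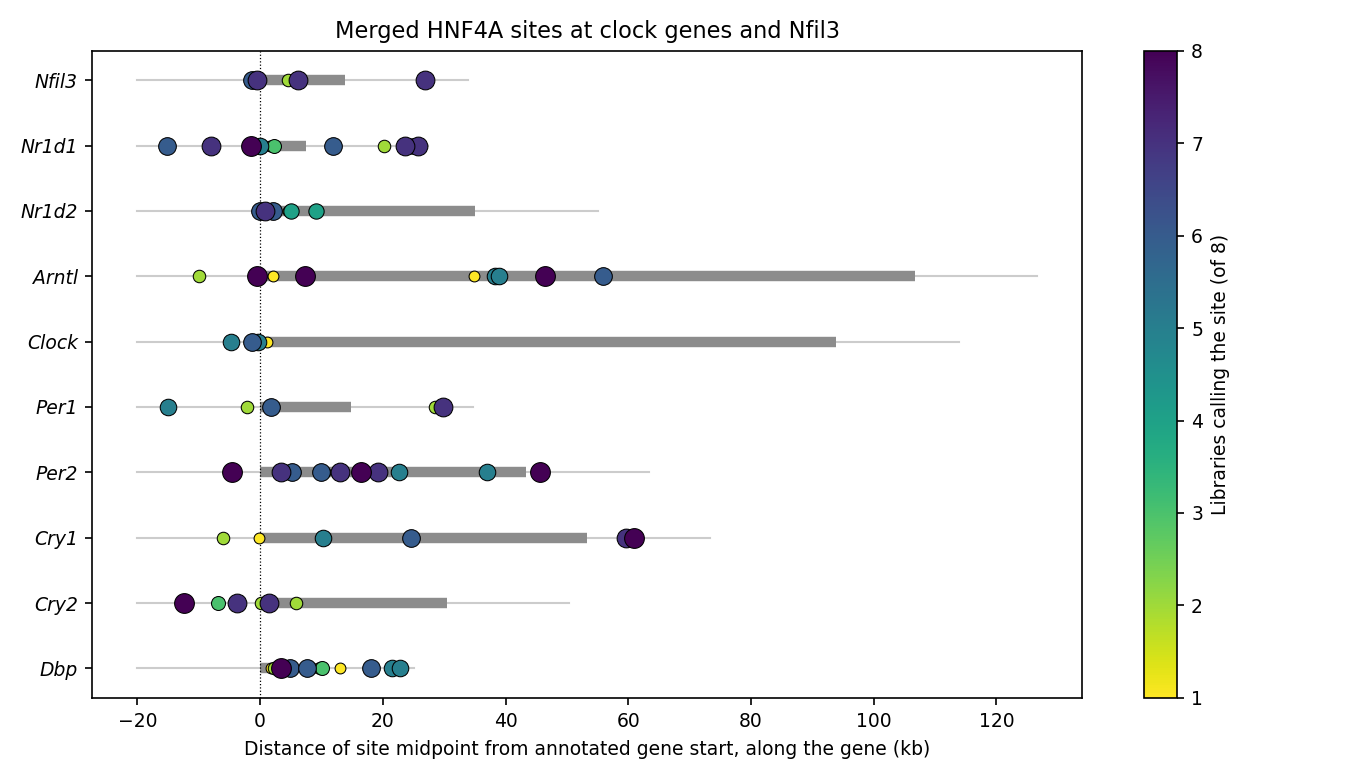
Merged HNF4A sites (circles) by distance of their midpoint from the annotated gene start in kb, along the direction of transcription. Thick bars are gene bodies, thin lines the 20 kb on either side, and larger, darker circles were called in more of the 8 libraries. Clock sites sat near the gene start, Per2 sites were spread along the gene, and Arntl sites lay upstream or in introns 1 and 2.

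Sites were dense at several of these genes. Dbp had 12 sites in 45.1 kb, Nr1d1 11 in 47.4 kb and Per2 11 in 83.3 kb, and the number of sites put these genes at percentiles of 97.4, 96.5 and 96.5 among all coding genes. Arntl had 9 sites in 147 kb, Nr1d2, Cry1 and Cry2 had 6 each, Nfil3 and Per1 had 5 and Clock had 4. The median was 6 sites per gene here and 2 over all coding genes, 65.5% of which had any site. At Dbp, only 4 of the 12 sites were nearest to the start of Dbp.

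The sites were called somewhat more often than HNF4A sites at large in every library. In GF+HFM replicates 1 to 4, 61, 56, 58 and 63 of the 75 sites were called, a share of 79.3% ± 4.15 (SD, n = 4), against 71.6% ± 5.41 of all merged sites. In CV+HFM replicates 1 to 4, 53, 22, 43 and 12 were called, a share of 43.3% ± 25.1 (SD, n = 4), against 33.1% ± 23.4 of all merged sites. The 4 GF+HFM libraries all called more of the sites than any CV+HFM library, and the order within CV+HFM (replicates 1, 3, 2, 4) was that of the list lengths.

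**Figure D2:**
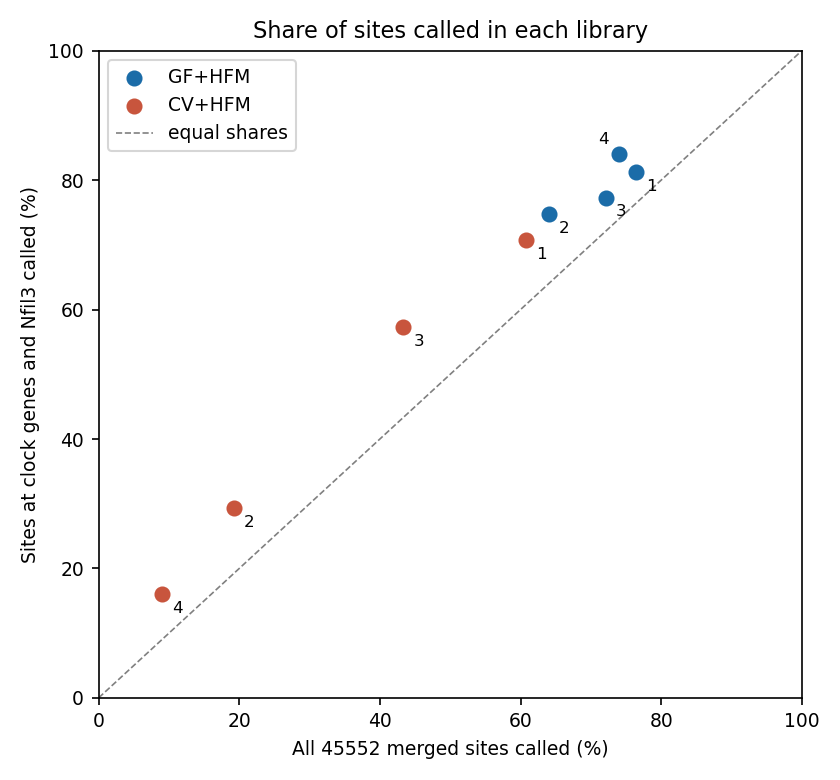
Share of the 75 sites at clock genes and Nfil3 called in each library (vertical axis, %) against the share of all 45552 merged sites (horizontal axis, %). Each point is 1 mouse, numbered by replicate, and the dashed line marks equal shares. All 8 points lie above the line, the lowest being CV+HFM replicate 4, at 16% against 8.97%.

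With a site of a condition defined as called in at least 2 of its 4 libraries, 63 of the 75 sites were GF+HFM sites (84%, against 75.7% of all merged sites) and 39 were CV+HFM sites (52%, against 40.8%). All 39 were also GF+HFM sites. The order turned when all lists were given the same length: when only the 4533 widest peaks of a list were kept, 9 of the 75 were GF+HFM sites and 16 were CV+HFM sites, while over all merged sites the counts were 4956 and 4857. This setting keeps the whole list of CV+HFM replicate 4, with its 12 called sites, but only the widest peaks of the longer lists. A call thus has a different width limit in each list. The CV+HFM count fell to 24 without CV+HFM replicate 1 and also to 24 without replicate 3.

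No site of these genes passed Fisher's exact test between the conditions. Of the 75 sites, 0 had calls in all 4 GF+HFM and no CV+HFM library, the pattern that reaches an unadjusted p of 0.0286, against 2.79% of all merged sites. After Benjamini-Hochberg adjustment 0 of the 75 passed 0.05, against 0% of all 45552 sites. The adjusted test could not tell sites apart, because too few sites reached the lowest possible p for any to pass. Calls in 4 GF+HFM and 0 CV+HFM libraries were found at 1269 of all merged sites. No site was called in more CV+HFM than GF+HFM libraries, against 2.86% of all merged sites, and 63 were called in more GF+HFM libraries, 84% against 86.5% of all sites. All 75 sites had a GF+HFM call (2.67% of all merged sites had none), and 18 had no CV+HFM call (24%, against 35.6% of all merged sites), each of these being called in 1 or 2 GF+HFM libraries. Without CV+HFM replicate 1, 8 of the 75 sites had an unadjusted p under 0.05, against 10.7% of all sites, and without CV+HFM replicate 3 there were 2, against 4.2%.

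Sites called in all 8 libraries numbered 10 (13.3%, against 7.56% of all merged sites). They fell in 6 of the genes (60%, against 16.8% of all coding genes), which had more sites of any kind (median 6 per gene here, against 2). Per2 and Arntl had 3 each, and Nr1d1, Cry1, Cry2 and Dbp had 1 each. Clock, Per1, Nr1d2 and Nfil3 had none. At the other end, 10 sites were called in 1 library alone (13.3%, against 21.6% of all sites), each time a GF+HFM library.

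**Figure D3:**
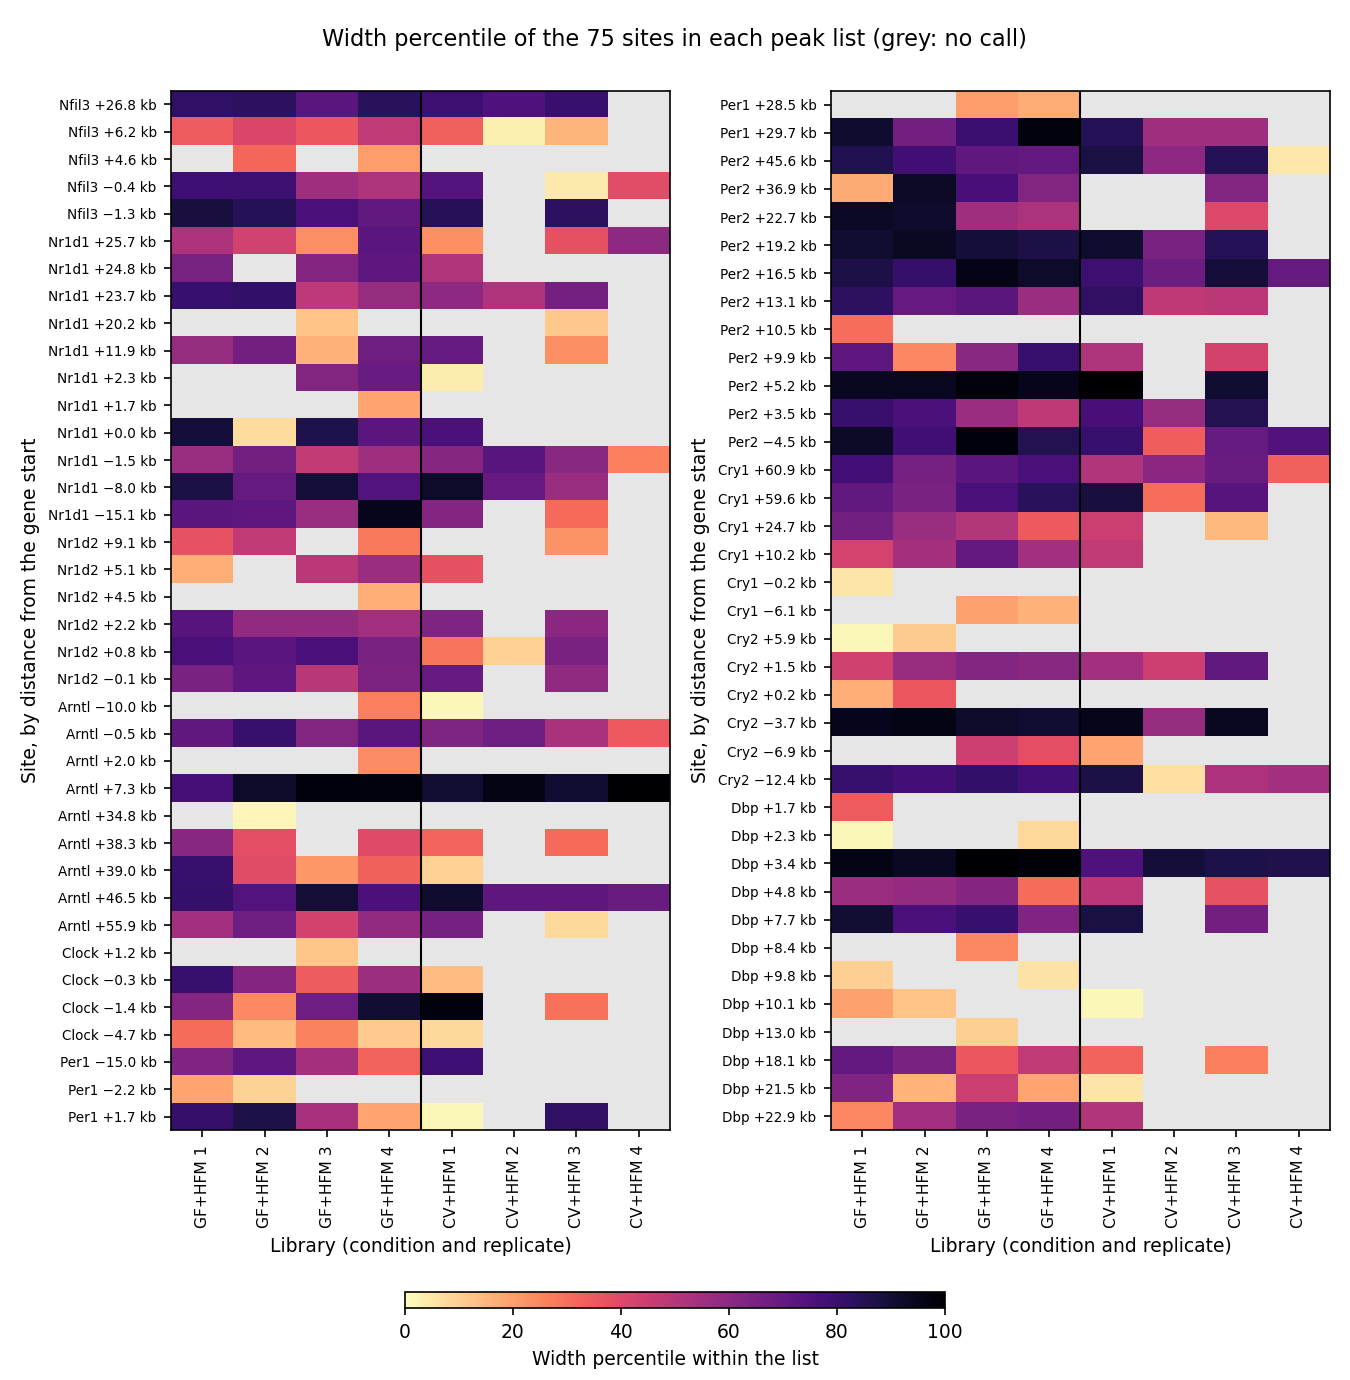
Width percentile of each of the 75 sites (rows, named by gene and distance of the midpoint from the gene start) within each of the 8 peak lists (columns), from narrow (pale) to wide (dark), with grey where a library had no call. Grey cells gather in CV+HFM replicates 2 and 4, and the sites of Per2, Dbp and Arntl that stay dark across a row were called in all 8 libraries.

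The activators come first. Clock (chr5:76639992-76733817, minus strand) encodes the partner of BMAL1, and its 4 sites all lay between 4550 bp upstream of the start and 1043 bp into intron 1, with none in the rest of the 93826 bp gene. GF+HFM libraries called 3, 3, 4 and 3 of them and CV+HFM libraries 3, 0, 1 and 0, so CV+HFM replicate 1 overlapped the GF+HFM group (mean 3.25 ± 0.5 against 1 ± 1.41, SD, n = 4, exact permutation test p = 0.114). The site over the Clock start, chr5:76733792-76734457, had a call in every GF+HFM library, at width percentiles of 80.2, 62, 34.2 and 56.1, and in CV+HFM replicate 1 at 13.8 (Fisher's exact test, two-sided, p = 0.143). The 1 CV+HFM call decided the comparison. When a call needed 50% of the site covered or a peak of at least 300 bp, the site was left with 4 GF+HFM calls and 0 CV+HFM calls (Fisher's exact p = 0.0286, unadjusted). Of all sites, 4.89% and 2.59% had an unadjusted p under 0.05 in these settings, which disfavour lists with narrow peaks. The site 897 bp upstream, chr5:76734714-76735671, ranged from 24.4 to 90.4 in GF+HFM and was among the widest peaks of CV+HFM replicate 1, at 97.4, with 29.4 in replicate 3 and no call in replicates 2 and 4. The CV+HFM values overlapped the GF+HFM range. No Clock site held the HNF4 element with at most 1 mismatch. The direct repeat of AGGTCA was found in the intron 1 site (chr5:76732536-76732774, 1 mismatch) and in the site 897 bp upstream (2 mismatches).

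Arntl (chr7:120350979-120457636, plus strand) encodes BMAL1. Its 9 sites were called 6, 7, 5 and 8 at a time in GF+HFM and 7, 3, 5 and 3 in CV+HFM (6.5 ± 1.29 against 4.5 ± 1.91, SD, n = 4, exact permutation test p = 0.2), and the groups overlapped. CV+HFM replicate 4, the shortest list, called 3 of its sites, as many as at Per2 and more than at any other of the 10 genes. Those 3 sites were called in every library.

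The widest of them lay in intron 1, 6681 bp from the start (chr7:120357660-120358989), at 77.6, 92, 97.9 and 97.3 in GF+HFM and 90.5, 95.8, 90.8 and 99.8 in CV+HFM replicates 1 to 4. It stayed above the percentile 90 in 7 of the 8 lists, GF+HFM replicate 1 being the exception. The site in intron 2, 46065 bp from the start (chr7:120397044-120397874), whose HNF4 element is printed above, was at 74.2 to 90.2 in GF+HFM, and its CV+HFM values ran from 68.7 to 91.2. The site 166 bp upstream of the start (chr7:120350173-120350813) was narrower, at 62.5 to 80.2 in GF+HFM and at 63.3, 66.9, 53 and 35 in CV+HFM. All 3 overlapped between conditions.

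Among the repressors, Per1 (chr11:68908719-68923462, plus strand) was the only one of the 10 genes whose groups did not overlap in the number of sites. Each GF+HFM library called 4 of its 5 sites, and CV+HFM replicates 1 to 4 called 3, 1, 2 and 0 (4 ± 0 against 1.5 ± 1.29, SD, n = 4). The exact permutation test gave p = 0.0286, and 0.234 after adjustment over the 14640 coding genes with a site. The background was similar, since 1788 of those genes (12.2%) had GF+HFM counts above all CV+HFM counts. The equal counts in GF+HFM were not the same 4 sites: the narrow site 2038 bp upstream was called in GF+HFM replicates 1 and 2 only, and another, 28349 bp past the start at the Hes7 gene, in replicates 3 and 4 only. The mouse identifiers of GF+HFM replicates 1 and 2 end in A and those of replicates 3 and 4 do not. Those of CV+HFM replicates 1 to 3 end in A and that of replicate 4, the shortest list, does not, and the sources used here do not say what this marks. Of the 75 sites, 4 (5.33%, against 2.94% of all) were called in replicates 1 and 2 and not in 3 and 4, and 4 (5.33%, against 3.51% of all) the other way round.

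The widest Per1 site, chr11:68937703-68939198, lay beyond the gene, 200 bp from the start of Aloxe3, and was called in all libraries but CV+HFM replicate 4, at 66.3 to 97.3 in GF+HFM and 85, 55.4 and 55.6 in CV+HFM replicates 1 to 3. It joined 2 neighbouring peaks in 6 of the 7 libraries, and midpoints of the widest peaks lay up to 857 bp apart. This site held the letters of the A-box followed, 20 to 60 bases on, by the B-box GTTCNANNC, the internal promoter boxes of tRNA genes, a class of loci known for unspecific ChIP peaks. One such pair lay in the stretch shared by the 7 libraries (chr11:68938121-68938173, minus strand). Searched on both strands over whole sites after the sequence was seen, the pair occurred in 1 of the 75 sites (1.33%) and in 1.45% of all sites, and its part in the calls was not tested. Without this site, 3 Per1 sites were called in each GF+HFM library and 2, 0, 1 and 0 in CV+HFM (exact permutation p = 0.0286, unadjusted). With the 4533 widest peaks of each list, the GF+HFM and CV+HFM means for Per1 were equal (exact permutation p = 1).

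Per2 (chr1:93312561-93355907, minus strand), a negative limb gene induced by many signals, had 11 sites, from upstream of the start to beyond the gene end. GF+HFM libraries called 11, 10, 10 and 10 and CV+HFM libraries 8, 6, 10 and 3 (10.2 ± 0.5 against 6.75 ± 2.99, SD, n = 4, exact permutation test p = 0.114). CV+HFM replicate 3 called as many as 3 of the GF+HFM libraries, 2 more than CV+HFM replicate 1 although its list was shorter. The 2 sites it added, in introns 19 and 9 (chr1:93318637-93319330 and chr1:93332886-93333580), had calls in all 4 GF+HFM libraries and, of CV+HFM, in replicate 3 alone. They were singled out after their values were seen, and over all merged sites 3.15% were called in CV+HFM replicate 3 but not in replicate 1, against 4 of the 75 here (5.33%).

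Of the 3 Per2 sites called in all 8 libraries, the one in intron 6, 15951 bp from the start (chr1:93338812-93339956), was the most even, at 87.4, 81, 95.6 and 91.8 in GF+HFM and 79.4, 67.8, 89.1 and 69.9 in CV+HFM. The upstream site, 3823 bp before the start (chr1:93359730-93361093), was at 92.2, 78.6, 97.7 and 85.3 in GF+HFM and at 80.8, 33.7, 69.6 and 74.3 in CV+HFM, lowest in CV+HFM replicate 2. The groups overlapped at both sites. The third, chr1:93309951-93310564, lay beyond the gene end and 51 bp from the start of Hes6, a member of the HES family, at 70.3 to 85.9 in GF+HFM and at 87.6, 59.7, 84.8 and 5.01 in CV+HFM. Within the 4533 widest peaks of each list it was kept by 4 CV+HFM lists and 0 GF+HFM lists (Fisher's exact p = 0.0286, unadjusted). In that setting 0.195% of all sites had an unadjusted p under 0.05. CV+HFM replicate 4 holds 4533 peaks in all, so its narrow peak was kept whatever its width. Only the widest peaks of the longer lists were kept, so this p does not compare binding between the conditions.

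The widest Per2 site was in intron 1, 4467 bp from the start (chr1:93350034-93351440). It was at 93.6, 94.1, 97.4 and 94.7 in GF+HFM, at 99.5 and 91 in CV+HFM replicates 1 and 3, and not called in CV+HFM replicates 2 and 4. Its mean over calling libraries, 95.1, was the highest of the 75 sites, yet 2 lists lacked it, whereas the narrower upstream Per2 site was in all 8. In 3 of the 6 calling libraries the intron 1 site was split into 2 or 3 peaks, and midpoints of the widest peaks lay up to 701 bp apart.

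Cry1 (chr10:84594447-84647799, minus strand) and Cry2 (chr2:92243803-92274200, minus strand) encode the cryptochromes, partners of the PER proteins. Cry1 had 6 sites, called 5, 4, 5 and 5 at a time in GF+HFM and 4, 2, 3 and 1 in CV+HFM (4.75 ± 0.5 against 2.5 ± 1.29, SD, n = 4, exact permutation test p = 0.0571). Its widest pair lay past the gene end within Mterfd3. The site at chr10:84586540-84587220 was called in all 8, at 65.4 to 78 in GF+HFM and at 51.1, 60.2, 68.7 and 33.5 in CV+HFM. When 50% coverage was required it was left with 4 GF+HFM calls and 0 CV+HFM calls (Fisher's exact p = 0.0286, unadjusted, against 4.89% of all sites under 0.05). The widest peaks set the span of a merged site, so this rule disfavours lists with narrow peaks. This site was as wide as its GF+HFM replicate 4 peak (681 bp), and the CV+HFM replicate 3 peak was 339 bp wide. Its neighbour at chr10:84587826-84588604 was called in all but CV+HFM replicate 4, at 64.3 to 83.9 in GF+HFM and 88.5, 30.2 and 73.4 in CV+HFM. Near the Cry1 start, 135 bp upstream, GF+HFM replicate 1 alone had a peak of 164 bp, at a percentile of 5.08.

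Cry2 also had 6 sites, called 5, 5, 4 and 4 at a time in GF+HFM and 4, 3, 3 and 1 in CV+HFM (4.5 ± 0.577 against 2.75 ± 1.26, SD, n = 4, exact permutation test p = 0.0857), and CV+HFM replicate 1 overlapped the GF+HFM group. The site 3284 bp upstream (chr2:92277484-92278409), with the HNF4 element printed above, was at 94.7, 96, 91.8 and 90.7 in GF+HFM and at 95.1, 57.5 and 94.1 in CV+HFM replicates 1 to 3, and replicate 4 lacked it. The site 11748 bp upstream (chr2:92285948-92287230) was called in all 8, at 77.9 to 81.9 in GF+HFM and at 87.4, 6.36, 52.3 and 54.6 in CV+HFM. It held a pair of peaks in every library but CV+HFM replicate 2. Midpoints of the widest peaks lay up to 773 bp apart, so the percentiles of this site did not all come from the same peak of the pair. A site over exon 1 of Cry2, 20 bp from the start, was called only in GF+HFM replicates 1 and 2, at 17 and 35.9.

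The REV-ERB genes both had a site over the start. Nr1d1 (chr11:98629246-98636647, minus strand) neighbours Thra, and 5 of its 11 sites lay in Thra. GF+HFM libraries called 8, 7, 10 and 10 and CV+HFM libraries 9, 3, 7 and 2 (8.75 ± 1.5 against 5.25 ± 3.3, SD, n = 4, exact permutation test p = 0.143), with CV+HFM replicate 1 above GF+HFM replicates 1 and 2. The merged site over the start (chr11:98636123-98637148) had a call in every GF+HFM library, at 89.2, 7.06, 86.6 and 72, and in CV+HFM replicate 1 at 76.5 (Fisher's exact test p = 0.143). The stretch shared by the 5 calling libraries, 98636348-98636436, lay inside the gene. The 175 bp peak of GF+HFM replicate 2, which covers that stretch, did not reach the start. The site called in all 8 lay 1281 bp upstream (chr11:98637928-98638426), at 46.5 to 66.3 in GF+HFM and at 61.4, 72.8, 60.8 and 26.5 in CV+HFM. The site over the start thus had 1 CV+HFM call and this upstream site had 4. Sites in intron 1, 1504 and 2039 bp from the start, had 0 and 1 CV+HFM calls. The highest mean width percentile of the gene, 77, was at the site 7590 bp upstream (chr11:98644237-98645015). It was at 69.7 to 89.8 in GF+HFM and at 92.1, 69.3 and 56.8 in CV+HFM replicates 1 to 3.

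Nr1d2 (chr14:19036568-19071641, minus strand) had 6 sites, all from the start to 8973 bp into intron 1. GF+HFM libraries called 5, 4, 4 and 6 and CV+HFM libraries 4, 1, 4 and 0 (4.75 ± 0.957 against 2.25 ± 2.06, SD, n = 4, exact permutation test p = 0.171). The site over the start (chr14:19071438-19072015) was at 64.1, 71.8, 49.3 and 64 in GF+HFM and at 69.3 and 59.1 in CV+HFM replicates 1 and 3. It was also the site with the highest mean percentile of the gene, 62.9, below that of the leading site of every other member but Clock. CV+HFM replicates 1 and 3 fell inside the GF+HFM range.

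Of the output genes, Dbp (chr7:52960458-52965525, plus strand) had the most sites, in a stretch crowded with Rpl18, Sphk2, Fam83e and Spaca4. GF+HFM libraries called 10, 7, 8 and 8 and CV+HFM libraries 7, 1, 4 and 1 (8.25 ± 1.26 against 3.25 ± 2.87, SD, n = 4, exact permutation test p = 0.0571). The site over exon 3 (chr7:52963024-52964706), the only 1 of the 12 called in all 8 libraries, was at 95.8, 93, 99.6 and 98.2 in GF+HFM and at 75, 89.6, 86.8 and 86 in CV+HFM. Every GF+HFM value was above every CV+HFM value on this scale. GF+HFM replicates 1 and 2 each had 2 peaks in the site and CV+HFM replicate 1 had 3, and only the widest was ranked. Midpoints of the widest peaks lay up to 274 bp apart. Among the 3445 sites called in all libraries, where each list contributes the same sites, the percentiles were 77, 68, 97.3 and 89.5 against 24.1, 77.4, 57.6 and 81.7, and the groups overlapped.

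Nfil3 (chr13:53062578-53076442, minus strand) had 5 sites. GF+HFM libraries called 4, 5, 4 and 5 and CV+HFM libraries 4, 2, 4 and 1 (4.5 ± 0.577 against 2.75 ± 1.5, SD, n = 4, exact permutation test p = 0.171), so CV+HFM replicates 1 and 3 matched 2 GF+HFM libraries. The highest mean width percentile of the gene, 81.3, was at the site 952 bp upstream (chr13:53077394-53078039). It was at 88.3, 85.1, 76.3 and 70.7 in GF+HFM and at 84.5 and 83 in CV+HFM replicates 1 and 3, within the GF+HFM range. A second promoter site, 189 bp upstream (chr13:53076631-53077137), was the only Nfil3 site that CV+HFM replicate 4 called. It was at 79.1, 79.3, 55.5 and 51.9 in GF+HFM and at 73.6, 4.05 and 38.7 in CV+HFM replicates 1, 3 and 4.

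The intron 1 site of Nfil3 with the HNF4 element and 2 E-boxes (chr13:53069974-53070421) was among the narrower peaks. It was at 34.5, 41.4, 35.9 and 47.5 in GF+HFM and at 33.5, 3.04 and 15.3 in CV+HFM replicates 1 to 3, and replicate 4 lacked it. In CV+HFM replicate 2 the peak was 113 bp wide, the same 113 bp that all 7 libraries shared. The CV+HFM values were all below the GF+HFM values. Both this site and the second promoter site were singled out after their values were seen, and no test of percentiles was run where a library lacked a call.

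**Figure D4:**
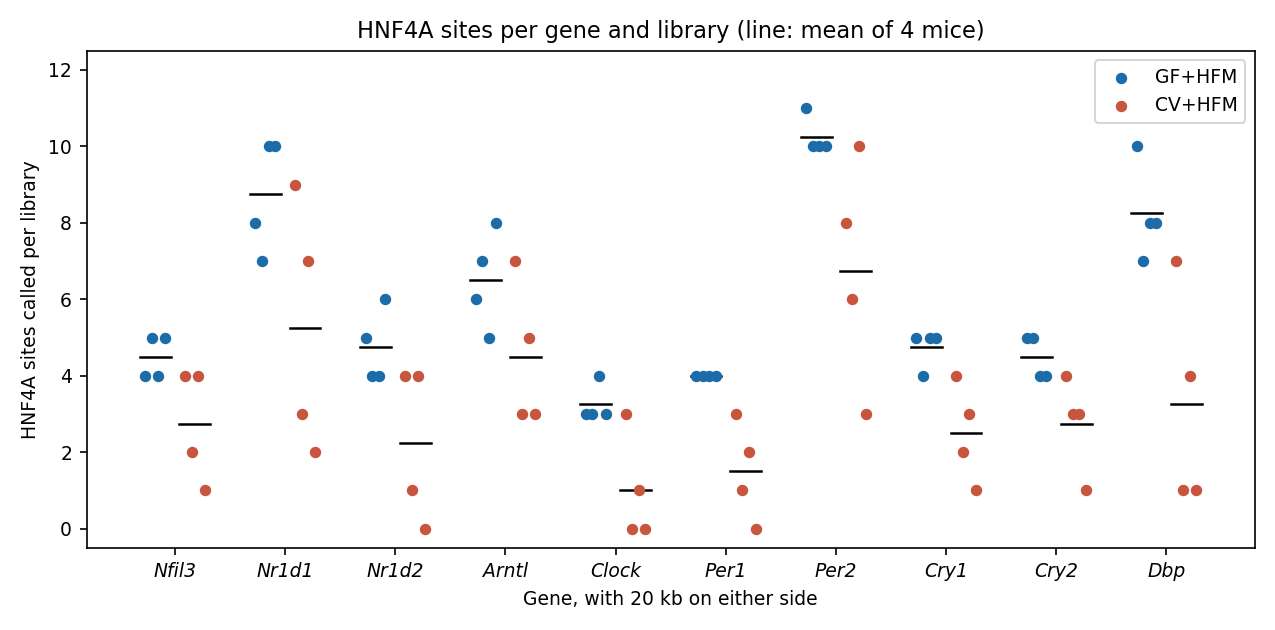
Number of HNF4A sites called per library at each gene with 20 kb on either side. Each point is 1 mouse (GF+HFM blue, CV+HFM red) and the line is the mean of 4. The groups separate at Per1 alone (4 in each GF+HFM library, 0 to 3 in CV+HFM), and CV+HFM points spread more widely than GF+HFM points at every gene.

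Relative width was compared over sites called in every library, a set limited by the shortest list: without CV+HFM replicate 4 it would hold 8375 sites, 22 of them at the clock genes. Over the 3445 such sites, limma, fitted to normal scores of width ranks, called 4 (0.116%) at an adjusted p under 0.05, and 398 had an unadjusted p under 0.05. Of the 10 sites of the clock genes, 0 passed after adjustment and 0 had an unadjusted p under 0.05, with adjusted p from 0.448 to 0.98. The median difference, CV+HFM minus GF+HFM, was -0.03 normal score units for the 10 sites and 0.04 for all 3445, and 5 of the 10 were lower in CV+HFM.

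The extremes of the 10 were Dbp and Nr1d1. The Dbp exon 3 site differed by -0.81 (limma, adjusted p = 0.474), from a mean percentile among the 3445 sites of 83 ± 13 in GF+HFM to 60.2 ± 26.2 in CV+HFM (SD, n = 4). The Nr1d1 upstream site differed by 0.77 (limma, adjusted p = 0.448), from 6.23 ± 4.54 to 22.8 ± 18.3. It was at 12.8 or lower in all 4 GF+HFM libraries on this scale, and above that in 3 of 4 CV+HFM libraries. The Arntl upstream site differed by 0.03 (adjusted p = 0.98 by limma) and the Cry1 site by -0.09 (adjusted p = 0.946).

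**Figure D5:**
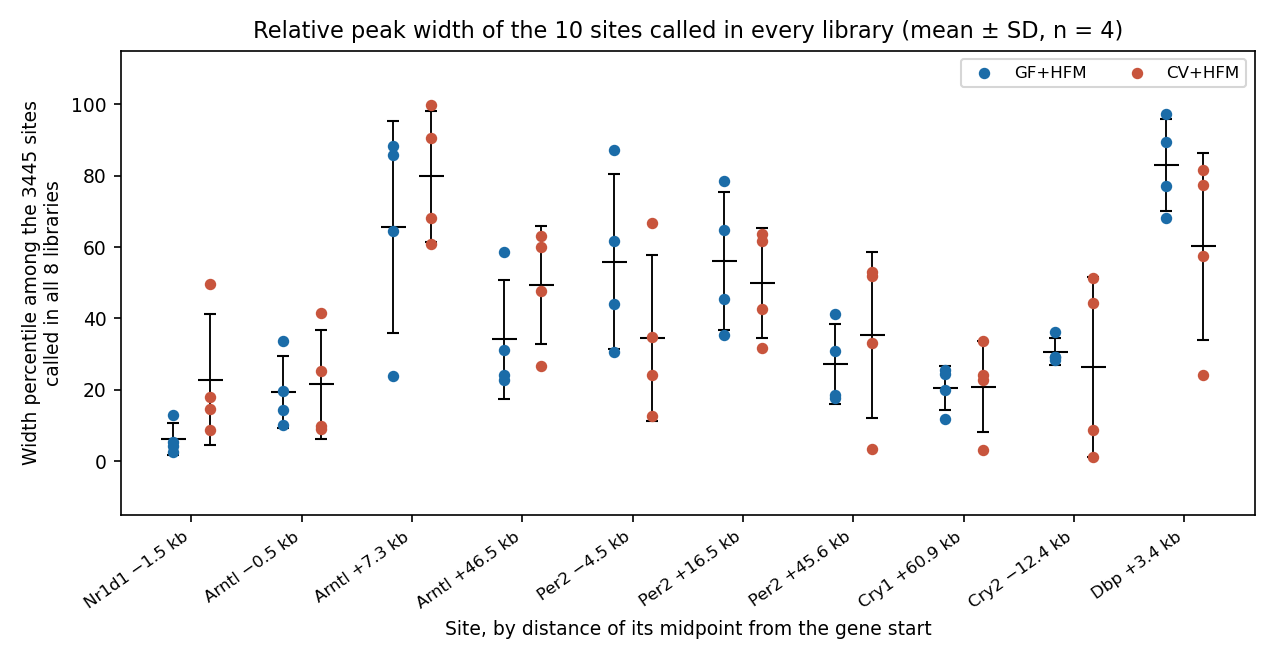
Width percentile among the 3445 sites called in all 8 libraries (vertical axis) for the 10 sites of clock genes, named by distance of the midpoint from the gene start. Points are single mice (GF+HFM blue, CV+HFM red), with the mean and SD of 4. GF+HFM and CV+HFM points overlap at every site, including Dbp (83 against 60.2) and Nr1d1 (6.23 against 22.8).

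The sites were also compared with all merged sites for motif letters, searched on both strands in the central 200 bp of each site (75 windows here and 45325 in all). The HNF4 element CAAAGTCCA was in 5 windows (6.67%, against 4.9% of all), and with at most 1 mismatch in 20 (26.7%, against 29%). The direct repeat of AGGTCA with at most 2 mismatches was in 6 (8%, against 12.9%). Elements of the clock itself were few: the E-box CACGTG was in 5 windows (6.67%, against 3.57%), the D-box TTANGTAA in 2 (2.67%, against 1.66%), and the ROR element TAGGTCA, which overlaps the AGGTCA copies, in 0 (0%, against 2.98%). The median GC content was 53.5% here and 48.5% in all windows. A window with both the exact HNF4 element and an E-box occurred once here, at Nfil3 intron 1 (1.33%), and in 62 of all windows (0.137%). These shares are descriptions of 75 windows and were not tested.

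Over whole sites, E-boxes were found in 14 of the 75, at Clock, Dbp, Nfil3, Nr1d1, Nr1d2 and Per2, and D-boxes in 7, at Nfil3, Nr1d1, Nr1d2 and Per2. ROR elements were in 7 sites. These whole-site counts were not compared with all merged sites, and the sites here were wider (median 535 bp, against 437 bp for all). The Per2 intron 6 site held 6 copies on the minus strand at a constant spacing of 41 bp, from 93338820 to 93339031, at its outer edge and outside the stretch shared by all libraries. Only GF+HFM replicate 4 had a peak over all 6 copies. This row of copies was noticed after the matches were listed.

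The other clock genes were examined as a list of 16: Per3, Npas2, Arntl2, Rora, Rorb, Bhlhe40, Bhlhe41, Tef, Hlf, Ciart, Csnk1d, Csnk1e, Fbxl21, Timeless, Btrc and Nono. HNF4A sites were found at 13 of them (68 sites), 81.2% against 65.5% of all coding genes, with 0 at Arntl2, Bhlhe41 and Csnk1e. Of the 68 sites, 13 were called in all 8 libraries (19.1%, against 7.56% of all merged sites). GF+HFM sites numbered 56 (82.4%, against 75.7%) and CV+HFM sites 36 (52.9%, against 40.8%). Calls in 4 GF+HFM and 0 CV+HFM libraries were found at 2 (2.94%, against 2.79%). Calls in more CV+HFM than GF+HFM libraries were also found at 2 (2.94%, against 2.86%). The groups did not overlap in the number of sites at 2 of the 13 genes with a site, Npas2 and Btrc, against 12.2% of all coding genes with a site. Npas2, a paralogue of Clock, had 12, 11, 11 and 11 sites in GF+HFM and 10, 4, 9 and 3 in CV+HFM (exact permutation test p = 0.0286, adjusted p = 0.234). Tef and Hlf, relatives of Dbp that bind D-boxes, had 8 to 10 and 4 or 5 sites in GF+HFM and 3 to 8 and 3 or 4 in CV+HFM.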

How the data were processed

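HNF4A ChIP-seq of jejunal IECs was analysed in 4 GF+HFM and 4 CV+HFM mice, grouped by their labels. The authors used Bowtie2 for alignment (build mm9) and MACS2 2.1.1.20160309, with input as control, for peaks of each mouse, without pooling replicates. The deposited lists give only chromosome, start, end and name, so read depth is unknown and no p-value, score or signal was available. Starts were converted to count from 1. No peak ended beyond its NCBIM37 chromosome on the 22 chromosomes compared, and 9 sequence names (226 merged sites) were not in the reference used here.

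Members, gene lists, motifs and tests were chosen with earlier results of these data known. A library counted as calling a merged site if it contributed a peak to that site. Calls were compared by Fisher's exact test, sites per gene by exact permutation over 70 relabellings, and width ranks with limma 3.58.1 in R 4.3.3, each adjusted by Benjamini-Hochberg over all sites or genes tested (threshold 0.05). Other steps used Python 3.11.15, numpy 2.4.6, scipy 1.17.1 and matplotlib 3.10.9. The tests were checked on simulated data. Sites given in full were those called in all 8 libraries, called in 4 GF+HFM and 0 CV+HFM, lying over a gene start, or called more often in CV+HFM. The site with the highest mean width percentile at each gene, among sites with at least 4 calls, was also given in full. Of the list of other clock genes, 2 are not reported here. Other sites named were chosen after their values were seen. Exon and intron numbers follow the GENCODE M1 transcript with the most exons.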

Additional observations from a re-analysis of the deposited data

Results flagged for a closer look

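Of 43 groups of 4 libraries whose values were not all equal, 4 held 1 library apart from the others by Dixon's test at the 95% level. For continuous values chance flags about 1 in 20, a rate that does not hold for counts with ties. For Clock, 4 sites were called in GF+HFM replicate 3 and 3 in each of the others. For Per2, 11 sites were called in GF+HFM replicate 1 and 10 in each of the others. For Cry1, 4 sites were called in GF+HFM replicate 2 and 5 in each of the others. These 3 groups differ by 1 site, and the test always flags a group with 3 equal counts. At the Cry2 site 11748 bp upstream, GF+HFM replicate 3 stood at a width percentile of 36.3 among sites called in all 8 libraries, and the others at 28.3 to 29.3.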

How the results depend on the processing

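The main limit was the length of the lists, since depth is unknown and CV+HFM replicates 2 and 4 held few peaks. The numbers of GF+HFM and CV+HFM sites, 63 and 39, were 32 and 19 in gene bodies alone, and 9 and 16 with the 4533 widest peaks of each list. The CV+HFM number was 24 for calls in at least 3 of 4 libraries, 14 with 50% of a site covered and 20 with peaks at least 300 bp wide. With flanks of 10 or 50 kb, only sites nearest to a member's start, or calls in at least 1 library, both numbers stayed within 1.5 times. Sites with an unadjusted Fisher's exact p under 0.05 numbered 0 as reported, 3 with 50% coverage (4.89% of all sites), 3 with peaks of at least 300 bp (2.59% of all) and 1 with the widest peaks (0.195% of all). The last was the site at Hes6 beyond Per2, kept by more CV+HFM than GF+HFM lists. Genes whose groups did not overlap numbered 2 (Per1 and Per2), 2 (Per2 and Dbp) and 0 under the same settings, against 1 (Per1), while 17.8%, 11.4% and 0.735% of all genes with a site did so. With the widest peaks the mean difference in sites per library, GF+HFM minus CV+HFM, turned to -0.75 at Nfil3, Nr1d1 and Cry1, -1.25 at Arntl and -0.25 at Cry2, and the difference in libraries calling turned to -1 at the Nr1d1 site 7590 bp upstream and at the Cry1 site chr10:84587826-84588604. This setting gives all lists the same number of peaks. It keeps every peak of CV+HFM replicate 4 and only the widest peaks of the longer lists, and the cause of the turned directions was not tested.

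Leaving out each library in turn gave 56 to 63 GF+HFM sites and 24 to 39 CV+HFM sites, 0 to 8 sites with an unadjusted p under 0.05, and 1 to 5 genes whose groups did not overlap. The highest numbers, 8 sites and 5 genes (Clock, Per1, Cry1, Cry2 and Dbp), came without CV+HFM replicate 1, where the shares were 10.7% of all sites and 38.2% of all genes with a site. Without GF+HFM replicate 2 there were 3 genes (Per1, Cry1 and Dbp), against 20.8% of all genes with a site, and without CV+HFM replicate 3 there were 2 (Per1 and Per2), against 14.8%. Per1 had an exact permutation p of 0.0571 without any 1 GF+HFM library, although its groups still did not overlap there, against 0.0286. With peaks of at least 300 bp the exact permutation p was also 0.0571, and the Per1 groups overlapped. The difference in peak number ranged from -22435 to -14164 when a library was left out (added after the data were seen), with an exact permutation p of 0.0571 without any 1 GF+HFM library and 0.0286 otherwise. The conditions did not overlap in peak number with any library left out.

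By limma, 0 sites of the clock genes passed the adjusted threshold in the 12 fits of width rank, log2 width, peaks of at least 300 bp (1 site left), the replicate block and each library left out. Same-numbered libraries did not deviate together (correlations of 0.0534, 0.0746, -0.0776 and 0.138), so numbers were not read as pairs. With the replicate block, 0 of the 75 sites had an exact p under 0.05, but the block cannot go below 0.125, and limma with the replicate block called 0 of the 10 sites.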
